A study of Capra hircus with 4 samples.

Results

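Blood endothelial nuclei of the goat ovary were taken from the nuclei of 4 libraries by a marker gate. A nucleus was kept when it held at least 500 unique molecular identifiers (UMIs, tags that count single RNA molecules), at least 1 UMI of 3 or more of 9 blood endothelial genes (PECAM1, VWF, CDH5, FLT1, KDR, EMCN, ERG, TEK and PTPRB), and a UMI of at most 1 of 5 lymphatic endothelial genes (PROX1, RELN, CCL21, FLT4 and MMRN1). The gate took 1936 of 48332 nuclei (4.01%), with 10011979 of 225537272 UMIs. The nuclei were thus chosen by the measured UMIs of these 14 genes, which are given as a description with no test.

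The libraries came from ovaries collected for single-nucleus RNA sequencing from 2 Nubian and 2 Du'an goats. The Nubian goats were grouped as polytocous (litter size of 3, given as 3 or more in the labels) and the Du'an goats as monotocous (litter size of 1). All goats were about 3 years old and carried a controlled internal drug release insert with 300 mg of progesterone for 17 days to synchronise estrus, and by the labels no further hormone was used that could cause superovulation. Each goat gave 1 library, so each breed had 2 samples, and breed cannot be told apart from anything else the goats of a breed share. Nuclei of 1 goat are not replicates, and raw UMIs were therefore summed per goat before any test.

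Endothelial cells line blood vessels, hold together by VE-cadherin and claudin junctions, and lie on a basement membrane of type IV collagen and laminin. Vascular endothelial growth factor (VEGF) acts through FLT1 and KDR, angiopoietins through TEK, and Notch and BMP signals separate arterial from venous and capillary cells. In the ovary the vessel bed is rebuilt in each cycle as follicles grow and corpora lutea form, and the blood vessels run in the theca and stroma while the granulosa layer stays without vessels until ovulation.

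The gated nuclei numbered 465 in Du'an replicate 1, 633 in Du'an replicate 2, 628 in Nubian replicate 1 and 210 in Nubian replicate 2. They held 1918413, 3578946, 2948775 and 1565845 UMIs in the same order, with a median of 1940, 3010, 2779.5 and 4054.5 UMIs per nucleus. The other nuclei of these libraries had a median of 1926, 3429, 2383 and 1981 UMIs. A median of 5, 5, 4 and 5 of the 9 genes had a UMI in a gated nucleus, and 67 nuclei had all 9. None of the 5 lymphatic genes had a UMI in 1327 gated nuclei, and 609 had 1 of them. A further 1191 nuclei had 3 or more of the 9 genes but were outside the gate for 2 or more lymphatic genes. Across libraries 502 barcodes were shared by pairs of libraries in all, 2 of them among gated nuclei.

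Each of the 9 genes was far above its level in the other nuclei of the same goat. Levels are UMIs per 1000000 UMIs of the summed nuclei (CPM), and they are not compared between genes because nuclear reads rise with gene length. VWF, the von Willebrand factor stored in Weibel-Palade bodies, was at 962, 1001, 652 and 796 CPM in the gated nuclei (here and below the Du'an goats come first, replicate 1 before 2, then the Nubian goats), against 19.7, 17.2, 18.9 and 9.9 CPM in the other nuclei. PTPRB, the phosphatase that restrains TEK, was at 1028, 710, 872 and 547 CPM against 26.5, 32.8, 60.4 and 7.5 CPM. CDH5, which encodes VE-cadherin, was even across the goats, at 88.6, 86.3, 90.2 and 89.4 CPM, against 1.5 to 6.9 CPM. KDR, the main signalling receptor for VEGF, was at 449, 291, 241 and 196 CPM, and FLT1, its decoy partner, at 228, 222, 224 and 129 CPM. EMCN, the sialomucin endomucin of capillaries and veins, was at 600 and 672 CPM in the Du'an and 388 and 429 CPM in the Nubian goats. Both Du'an goats were above both Nubian goats for VWF, KDR and EMCN, both Nubian goats were slightly above for CDH5, and the breeds overlapped for the other 5 genes; over all genes tested the breeds did not overlap for 25.9%, and nothing is read from genes that the gate used.

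The share of gated nuclei with a UMI was 77.5% to 85.3% over the goats for VWF, 23.2% to 35.2% for CDH5 and 68.6% to 70.1% for the ETS factor ERG. After each nucleus was thinned to 1000 UMIs, VWF was seen in 48.0% to 66.0% of gated nuclei, in 1.3% to 2.1% of the other nuclei and in 1.14% to 1.86% of nuclei with 4 or more granulosa genes. CDH5 was seen in 0.04% to 0.27% of the granulosa-gene nuclei against 8.6% to 12.6% of the gated nuclei. The plot of the gate genes shows that gated and other nuclei were apart in all 4 goats for all 9 genes.

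**Figure D1:**
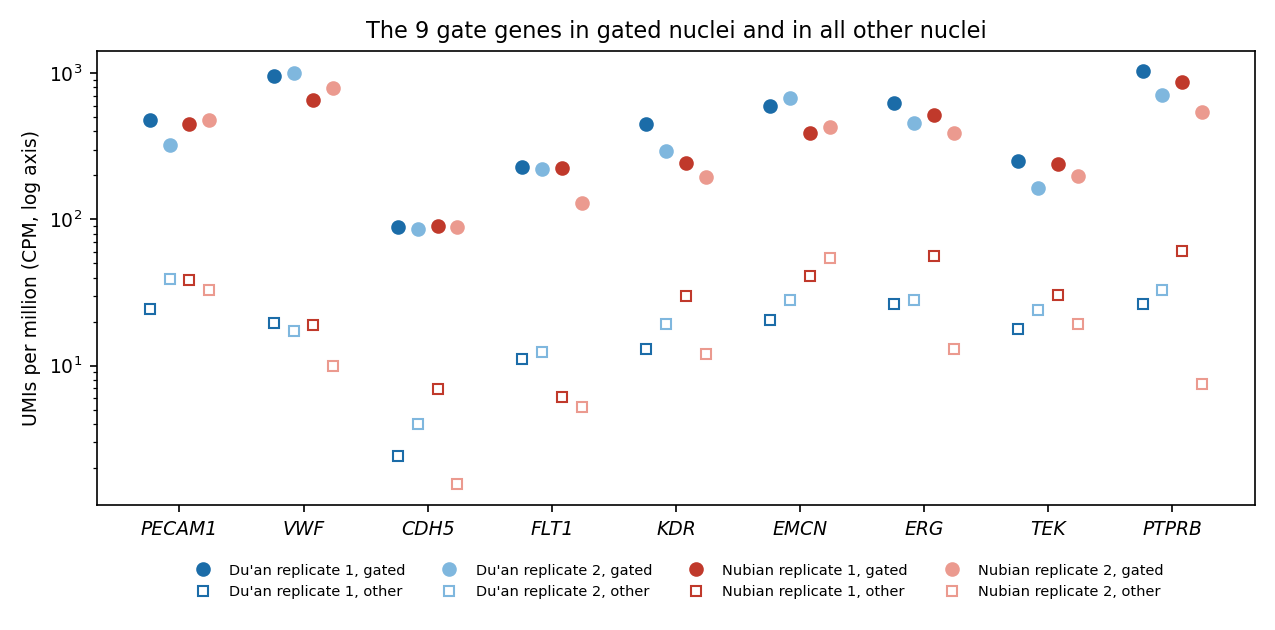
Level of each of the 9 gate genes (CPM, log axis) in gated nuclei (filled circles) and in all other nuclei (open squares), 1 point per goat. The gate used these genes, so the separation is a description; CDH5 stayed between 86.3 and 90.2 CPM in the gated nuclei of the 4 goats.

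Nuclei just inside the gate differed from those deep inside it. The 497 gated nuclei with exactly 3 of the 9 genes held 3252715 UMIs, and 1917 nuclei with exactly 2 stayed just outside. A list of 25 endothelial transcription factors and co-regulators without gate genes summed to 4267 CPM (mean over 4 goats, SD 703) in the nuclei with 2 gate genes, 4926 (SD 1261) with 3, 7773 (SD 841) with 4, 10009 (SD 1304) with 5 and 12797 (SD 1722) with 6 to 9. Junction and surface genes followed the same course, with 1141, 1566, 3072, 3916 and 5449 CPM. The 13 granulosa genes fell from 4730 CPM with 2 gate genes to 3578 with 3 and 1422 with 6 to 9. Nuclei with exactly 3 gate genes were therefore nearer to the nuclei outside than to those with 6 or more in both endothelial sums, and a gate of 4 or more genes was run as an alternative.

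**Figure D2:**
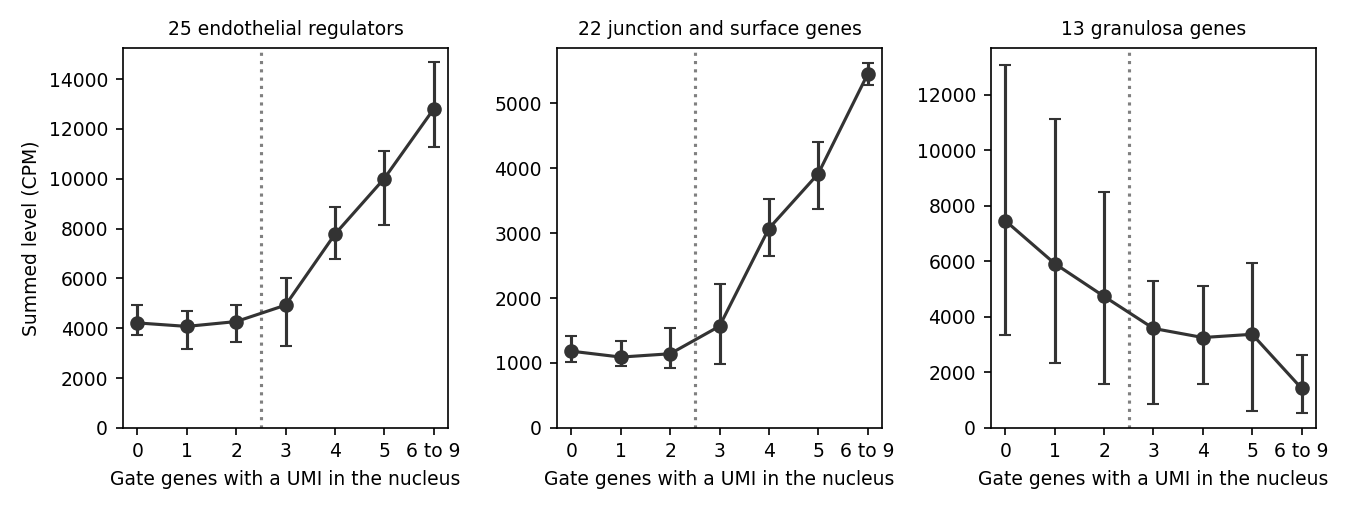
Summed level of 3 gene lists (CPM, linear axis) by the number of gate genes with a UMI, for nuclei with at most 1 lymphatic gene. Points are the mean of 4 goats, bars the lowest and highest goat, and the dotted line is the gate; the endothelial sums were flat from 0 to 2 genes and rose from 3 genes on, to 12797 CPM for the regulators.

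RNA of other ovarian cell types was present in the gated nuclei and differed between the libraries. At least 2 of the 13 granulosa genes had a UMI in 36.1%, 85.3%, 93.0% and 38.6% of the gated nuclei of the 4 goats, and in 58.4%, 89.5%, 96.9% and 62.9% of the other nuclei. All 13 granulosa genes had UMIs, and their sum was 1730, 3543, 4018 and 784 CPM in gated against 3390, 7513, 11556 and 3584 CPM in other nuclei. The macrophage list, with all 8 genes seen, summed to 41.2, 1187, 168 and 2155 CPM in gated and 391, 993, 364 and 1713 CPM in other nuclei. The stroma list, with all 8 genes seen, summed to 711, 764, 1996 and 2033 CPM in gated and 458, 406, 728 and 542 CPM in other nuclei, so the Nubian gated nuclei held more of it. The pericyte list was at 96.4, 27.9, 112 and 89.4 CPM in gated and 214, 41.5, 94.4 and 163 CPM in other nuclei, higher in Nubian replicate 1 alone. At least 2 smooth muscle genes had a UMI in 22.6%, 15.6%, 30.4% and 23.3% of gated nuclei. In other nuclei the shares were 40.6%, 21.9%, 40.4% and 28.6%. Only 423 gated nuclei (236, 72, 35 and 80) had under 2 genes of each of the granulosa, smooth muscle, stroma, T or natural killer, macrophage and epithelial lists. The other gated nuclei are those called nuclei with markers of other types below. Pericyte and theca genes were not counted in this filter. In the 423 nuclei the regulator list summed to 15216, 11960, 14031 and 11712 CPM. Doublets were not removed, and how much of these levels came from doublets or free RNA was not tested.

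Which genes outside the gate set these nuclei apart was asked by comparing them with all other nuclei of the same goats (edgeR quasi-likelihood on 8 sums, goat as a block, Benjamini-Hochberg adjusted p under 0.05). The test called 3719 of 16890 genes (22%), of which 2129 were higher (12.6%) and 1590 lower (9.41%) in the gated nuclei. Without Du'an replicate 2 it called 1474 higher and 927 lower, and without the goat block 983 higher and 155 lower. The split turned to 1914 higher and 2217 lower with upper quartile in place of TMM scaling, to 2031 and 2476 with 4 or more gate genes, and to 1577 and 2362 without nuclei that held markers of other types. The genes with the highest fold among those named by rule were BMX, a Tec family kinase of arterial endothelium, CX3CL1, the membrane-bound chemokine fractalkine, GJA5, the gap junction protein connexin 40, MMRN2, an endothelial matrix glycoprotein, and SELP, the P-selectin that starts leukocyte rolling. BMX was at 289, 133, 137 and 213 CPM in gated and at 0.724, 1.07, 1.05 and 0.996 CPM in other nuclei, which is 7.49 ± 0.31 on the log2 scale (SE, edgeR adjusted p = 1.83e-05). The other named genes were CA4, a carbonic anhydrase of capillary membranes, MAL, SEMA3G, HEY1, ABCB1, CD93, CLDN5, MYRIP, DKK2 and KL, from 6.08 for CA4 down to 5.45 for KL, the co-receptor Klotho, and each was higher in all 4 goats. MYRIP, which ties Weibel-Palade bodies to the actin skeleton, had the lowest adjusted p (4.87e-06) at 444, 308, 464 and 381 against 9.99, 6.49, 9.03 and 6.81 CPM. DKK2, a secreted Wnt modulator, ranged from 104.5 CPM in Du'an replicate 2 to 614 CPM in Du'an replicate 1.

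Among lower genes the folds were smaller. KIRREL3, an immunoglobulin superfamily adhesion protein, was at 2.09, 1.40, 11.2 and 5.11 CPM in gated and 19.5, 43.4, 269 and 20.5 CPM in other nuclei (log2 fold change of -4.12 ± 0.42, edgeR adjusted p = 0.000535). HMGA2, an architectural chromatin protein, fell by 1.99 on the log2 scale, and ESR2, the estrogen receptor beta of granulosa cells, fell by 1.91, from 46.3, 59.9, 114 and 55.4 CPM in other nuclei to 19.3, 19.6, 28.8 and 7.66 CPM. TNFAIP6, a hyaluronan-binding protein of the expanding cumulus, TACR3, the neurokinin B receptor, the netrin receptor UNC5D and 9 further genes (COL23A1, TC2N, JPH1, LRRTM3, SUSD4, KIAA1324L, RAB3C, SYT10 and FAM110B) completed the named genes. Of the granulosa list 11 of 13 genes were lower and none higher (median -1.48), of the T or natural killer list 7 of 9 were lower (median -1.10), and none of the 8 macrophage genes passed (median -0.66). With 4 or more gate genes 7 of the 8 macrophage genes (median -2.26) and all 9 of the T or natural killer list were lower. With no lymphatic gene allowed, only 2 of the 9 T or natural killer genes were lower (median -0.82). The median over all 16890 genes tested was -0.03.

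Endothelial regulators and junction genes that the gate did not use were higher in most cases. Of the 25 regulators 21 were higher, 1 was lower and 3 did not pass (median 2.53). MECOM, a zinc finger factor of stem cells and arterial endothelium, was at 3570, 2248, 3128 and 2386 CPM against 27.4, 74.6, 42.4 and 235 CPM (log2 fold change of 5.34 ± 0.62). GATA2 (5.17), SOX17 (4.96) and SOX18 (4.42), factors of vascular development, and EPAS1 (3.62), the hypoxia-inducible factor 2 alpha, were also higher, each in all 4 goats. FOXO1, the forkhead factor held back by insulin and growth factor signals, was the member that fell, by 1.03 on the log2 scale, from 1405 to 2676 CPM in other nuclei to 545 to 1271 CPM. Of the 22 junction and surface genes 19 were higher, 2 lower and 1 did not pass (median 2.96). CLDN5, the main claudin of endothelial tight junctions, was at 203, 219, 202 and 366 CPM against 2.66, 5.42, 8.64 and 3.87 CPM (log2 fold change of 5.60 ± 0.38). ESAM (5.31), CLEC14A (5.32), PODXL (4.62) and ROBO4 (4.35), surface proteins of endothelium, were higher, whereas GJA1, the connexin 43 that is abundant in granulosa cells, fell by 1.00 and JAM3 by 0.99.

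In the VEGF list without the 2 gate receptors, 7 of 15 genes were higher, 1 was lower and 7 did not pass (median 0.59). NOS3, the endothelial nitric oxide synthase, was at 48.0, 39.7, 54.9 and 39.6 CPM against 1.01, 2.04, 1.54 and 1.85 CPM (log2 fold change of 4.78 ± 0.24), and PRKCH and RAPGEF5, kinase and exchange factor of endothelial signalling, were higher by 2.70 and 3.63. VEGFA, the main ligand, was at 14.1, 31.0, 20.01 and 17.2 CPM in gated and 33.1, 34.5, 19.8 and 44.0 CPM in other nuclei and did not pass (edgeR adjusted p = 0.101). NRP2, the co-receptor for VEGFC, fell by 0.74 on the log2 scale. Of 9 angiopoietin genes TIE1, the orphan receptor that pairs with TEK, was higher (3.92 ± 0.24), ANGPT2 and ANGPT4 were lower and 6 did not pass. Over all genes tested 12.6% were higher and 9.41% lower. With 4 or more gate genes 4 of the 9 angiopoietin genes were lower. ANGPT2, the ligand made by endothelium that loosens vessels, was at 81.8, 148, 28.8 and 70.9 CPM in gated nuclei and 126, 230, 63.3 and 134 CPM in other nuclei, a fall of 0.87 on the log2 scale, seen in each goat.

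All 13 genes of the arterial list, which shares members with the Notch and regulator lists, were higher (median 4.83), and 5 of 6 venous genes were (median 1.21). Of the venous genes 3 of 5 were higher under the study's limits on nuclei, 3 of 6 with no lymphatic gene and 2 of 5 without nuclei that held markers of other types (median 0.80), while the arterial count stayed at 13 of 13. Of 17 Notch genes 11 were higher, 3 lower and 3 did not pass (median 1.16). JAG2 (4.83), DLL4 (4.72) and JAG1 (3.94), ligands of Notch, and NOTCH4 (4.59), its endothelial receptor, stood far above the other nuclei. JAG1 was at 340, 187, 438 and 172 CPM against 19.9, 12.7, 16.3 and 18.6 CPM. NOTCH2 and the nuclear partners RBPJ and MAML3 were lower, by 0.80, 0.61 and 1.04. Of 17 BMP and TGF-beta genes 12 were higher and none lower (median 1.15), among them ACVRL1 (4.12) and ENG (3.87), the receptor pair mutated in hereditary haemorrhagic telangiectasia, TGFBR2 (3.04), BMP4 (3.21) and BMP6 (3.09). ENG was at 118, 123, 84.1 and 122 CPM in gated nuclei and at 5.54, 6.76, 8.58 and 8.71 CPM in other nuclei.

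Genes of the vessel wall and its exchange followed. Of 18 basement membrane and integrin genes 13 were higher, 1 was lower and 4 did not pass (median 1.39). Without nuclei that held markers of other types 9 of the 18 were higher (median 0.71); the stroma list was also higher in gated nuclei, and its part in these values was not tested. COL4A1 and COL4A2, the chains of type IV collagen, were higher by 2.11 ± 0.16 and 2.13 ± 0.21, and ITGA5, the fibronectin receptor chain, by 3.56. Of 18 transport genes 11 were higher, 1 was lower and 6 did not pass (median 2.17). ABCB1, the efflux pump P-glycoprotein, was at 1196, 1285, 529 and 815 CPM against 14.1, 25.6, 15.1 and 14.04 CPM, and ABCG2, a further efflux pump, was higher by 4.58. CAV1, the coat protein of caveolae, was higher by 3.62. PLVAP, the diaphragm protein of fenestrae, was higher by 3.30 but stood at only 3.13 to 10.9 CPM. INSR, the insulin receptor, fell by 0.93. Of 18 genes for vessel tone and clotting 12 were higher and none lower (median 2.35), with EDN1, the vasoconstrictor endothelin 1, at 85.0, 183, 78.7 and 158 CPM against 7.58, 7.88, 5.32 and 15.01 CPM, and PTGS1 (4.16), PROCR (3.99), TFPI (3.09) and THBD (2.86), enzymes and receptors that keep blood fluid and vessels open. Of 12 leukocyte adhesion genes 9 were higher and none lower (median 1.36). CXCL12 was higher by 2.78 and ICAM1 by 1.11, and SELE, the E-selectin of inflamed endothelium, was counted in 0 of 1936 gated nuclei, which limits the share of gated nuclei showing a UMI to 0.155%, for counting error only and not for expression.

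Of 16 tip cell genes 9 were higher and 4 lower (median 1.25). APLNR (4.58), the apelin receptor, and ESM1 (2.75), endocan, were higher at 1.28 to 5.87 and 3.65 to 5.11 CPM, whereas ADM, the vasodilator adrenomedullin, fell by 1.31. Of 20 guidance genes 11 were higher and 5 lower, with SEMA3G (5.80) and ROBO4 at the upper end and ROBO1 (a fall of 1.30) and ROBO2 (a fall of 1.60), receptors for Slit proteins, at the lower end. ROBO1 was at 157, 158, 1116 and 107 CPM in gated and 284, 300, 3244 and 341 CPM in other nuclei, so Nubian replicate 1 stood above the other goats in both. Of 14 cell cycle genes none was higher, 2 were lower (TOP2A and BUB1B) and 12 did not pass. Over all genes tested 12.6% were higher and 9.41% lower. With a gate of 4 or more genes 10 of the 14 cell cycle genes were lower, beside 2476 of all 16491 genes tested. Of the hormone receptors NR3C2, the mineralocorticoid receptor, was higher by 2.35 at 561, 280, 362 and 391 against 54.6, 40.2, 138 and 93.2 CPM, while ESR1, the estrogen receptor alpha, fell by 0.84. PGR, the progesterone receptor, was at 77.1, 144, 77.7 and 116 against 78.3, 83.2, 94.7 and 76.9 CPM and did not pass (edgeR adjusted p = 0.484). Of the stroma list 4 of 8 genes were higher, but with a gate of 4 or more genes only 1 was, and COL1A2, a type I collagen chain, turned from 1.68 to -0.12.

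**Figure D3:**
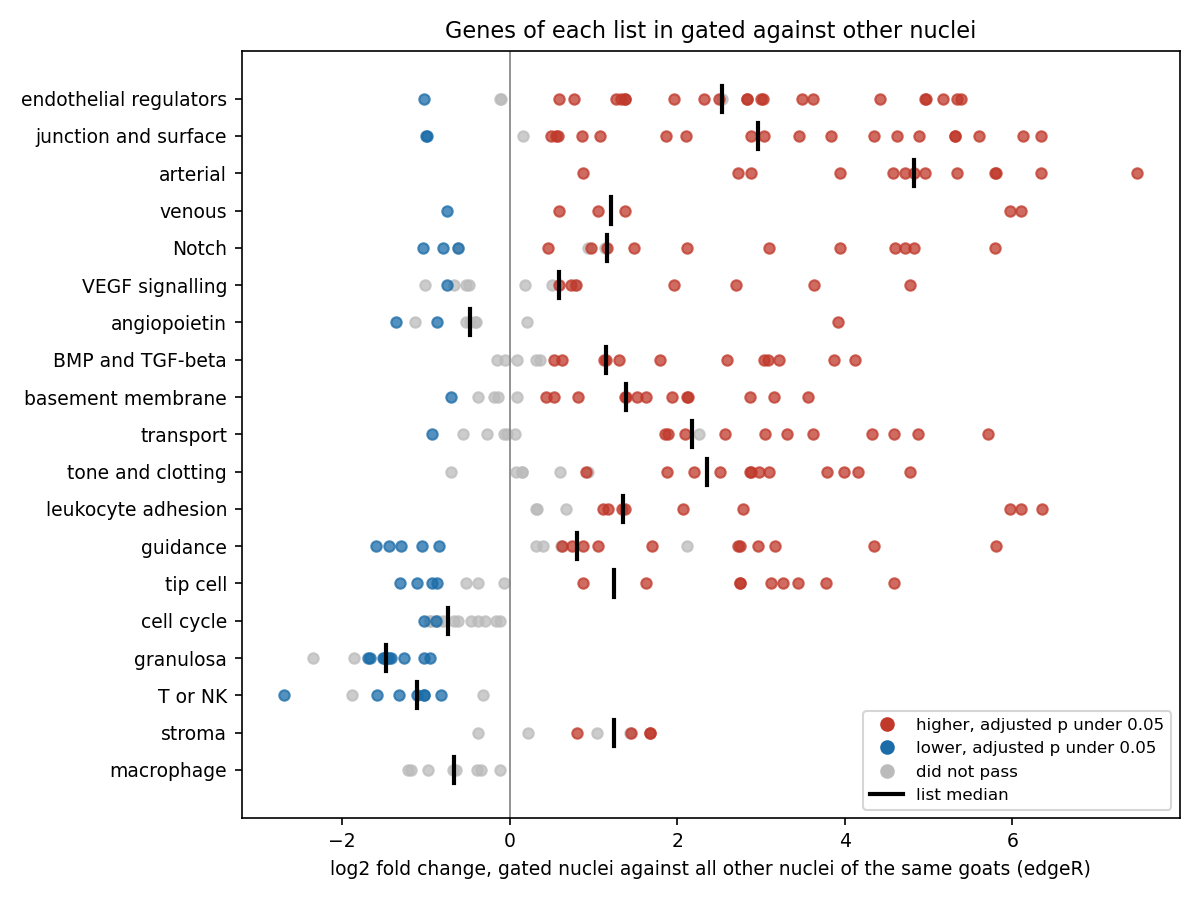
log2 fold change of each listed gene in gated against other nuclei of the same goats (edgeR, 8 sums), 1 row per list, gate genes left out; red and blue points passed an adjusted p of 0.05, grey points did not, and black bars are list medians. Regulator, junction and arterial medians were 2.53, 2.96 and 4.83, and the granulosa median was -1.48.

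Mitochondrially encoded RNA was a larger part of the gated nuclei. Of the 13 genes 10 were higher and none lower (median 0.78), and their sum was 27376, 34020, 28381 and 40563 CPM in gated against 10365, 22015, 20378 and 26551 CPM in other nuclei. The median share of mitochondrial UMIs was 2.87%, 6.97%, 4.27% and 7.32% in gated and 1.39%, 3.30%, 3.13% and 2.35% in other nuclei, and 112 gated nuclei were over 20%. Under the study's limits on UMIs, genes and mitochondrial share, applied here without its doublet step, 1671 gated nuclei were left and all 13 genes were higher.

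Lymphatic endothelium is the nearest cell type, and the gated nuclei were next compared with nuclei that hold 2 or more of the 5 lymphatic genes. These numbered 3524 (676, 1031, 1295 and 522). Their granulosa genes summed to 4922 CPM (SD 1931), so this group held granulosa RNA. MMRN1, one of the lymphatic genes, was at 229 CPM in granulosa-gene nuclei. Its level in gated nuclei is limited by the gate and is not compared. A stricter group of nuclei with 3 or more lymphatic genes (286, 475, 644 and 148) was set beside it, against which none of 12 granulosa genes passed the test (median -0.36). The first comparison called 2404 of 13611 genes (17.7%), 1622 higher (11.9%) and 782 lower (5.75%) in gated nuclei, but 859 without Du'an replicate 1 and 1300 without Du'an replicate 2. Its split turned to 1265 higher and 1586 lower without gated nuclei that held markers of other types. The stricter one called 1216 of 12450 (9.77%), with 643 higher (5.16%) and 573 lower (4.6%). Of the stricter calls 847 were also made in the first comparison. Stroma genes were higher in the gated nuclei for 5 of 8 genes in the first and 5 of 7 in the stricter comparison, and 11 of 13 mitochondrial genes were higher in the first and none in the stricter one, and the part of these RNAs in the results was not tested.

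Genes higher in the gated nuclei in both comparisons included MECOM, at 81.3, 161, 76.3 and 34.6 CPM in the stricter lymphatic group against the 2248 to 3570 CPM given above (log2 fold change of 5.10 ± 0.41, edgeR adjusted p = 0.000653). HEY1, BMX, GJA5, CX3CL1, DKK2, SEMA3G, CALN1, SOX17, MYRIP, TRPM6, ABCB1, SELP, CA4 and PRDM16 were the other genes named by rule, from 5.38 for HEY1 to 4.43 for PRDM16 in the first comparison. BMX was at 0.883, 6.50, 1.67 and 1.19 CPM in the stricter group. EDN1 was at 0.883, 13.4, 4.53 and 3.58 CPM there and was higher in the gated nuclei by 4.37, PDE3A, which breaks down cyclic AMP and GMP, by 3.88, and CXCL12 by 3.41. NOTCH4 was higher by 3.84, while NOTCH1 was lower by 1.40, at 57.3, 56.2, 78.3 and 47.9 CPM in gated and 155, 162, 135 and 152 CPM in lymphatic nuclei.

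Lower in the gated nuclei by rule were KIRREL3, SCN3A, FAM19A5, TBX1, COL23A1, REEP1, ADAMTS12, FBLN7, SEMA3D, FSTL4, PARD6G, GRIK4, TC2N, SLC38A4 and SEMA3A. KIRREL3 was at 425, 963, 4194 and 1036 CPM in the nuclei with 3 or more lymphatic genes against 1.40 to 11.2 CPM in gated nuclei (-8.44 ± 0.36 on the log2 scale, edgeR adjusted p = 0.000166), with no overlap. SEMA3D, a secreted semaphorin, was at 409, 363, 551 and 418 CPM against 16.2, 6.71, 11.2 and 3.83 CPM, and TBX1, a T-box factor needed for lymphatic vessels, at 210, 213, 254 and 174 CPM against 3.13, 0.838, 4.41 and 0 CPM. The lymphatic list without gate genes was lower for 6 of 8 genes in the first and 7 of 8 in the stricter comparison. PDPN, LYVE1 and PKHD1L1, surface proteins of lymphatic vessels, fell by 3.34, 2.77 and 3.87 in the latter. LAMA4, the laminin chain of vessel walls, fell by 2.48 and SMAD1, a BMP signal carrier, fell by 3.08, although both were higher in gated nuclei than in all other nuclei.

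The endothelial lists were next set against the stricter lymphatic group, where 5.16% of all genes tested were higher and 4.6% lower in gated nuclei. In the stricter comparison 5 of 24 regulators were higher, 4 lower and 15 did not pass (median -0.11), against 11 higher and none lower in the first. Of 22 junction genes 9 were higher and 1 lower (median 0.66). EGFL7, a secreted vessel protein, was at 214, 168, 249 and 149 CPM in gated and 257, 239, 295 and 258 CPM in the stricter lymphatic group (edgeR adjusted p = 0.132), and KLF2, the flow-induced factor, at 99.0, 71.8, 123 and 160 against 131, 164, 84.9 and 136 CPM (adjusted p = 0.66). Of 13 arterial genes 9 were higher and 1 lower (median 4.87). Of 5 venous genes 2 were higher, SELP by 4.39 and the interleukin 1 receptor IL1R1 by 2.07, and 3 were lower (median -1.32). The vein factor NR2F2 fell by 1.32, the ephrin receptor EPHB4 fell by 1.87 and NRP2 fell by 2.26.

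**Figure D4:**
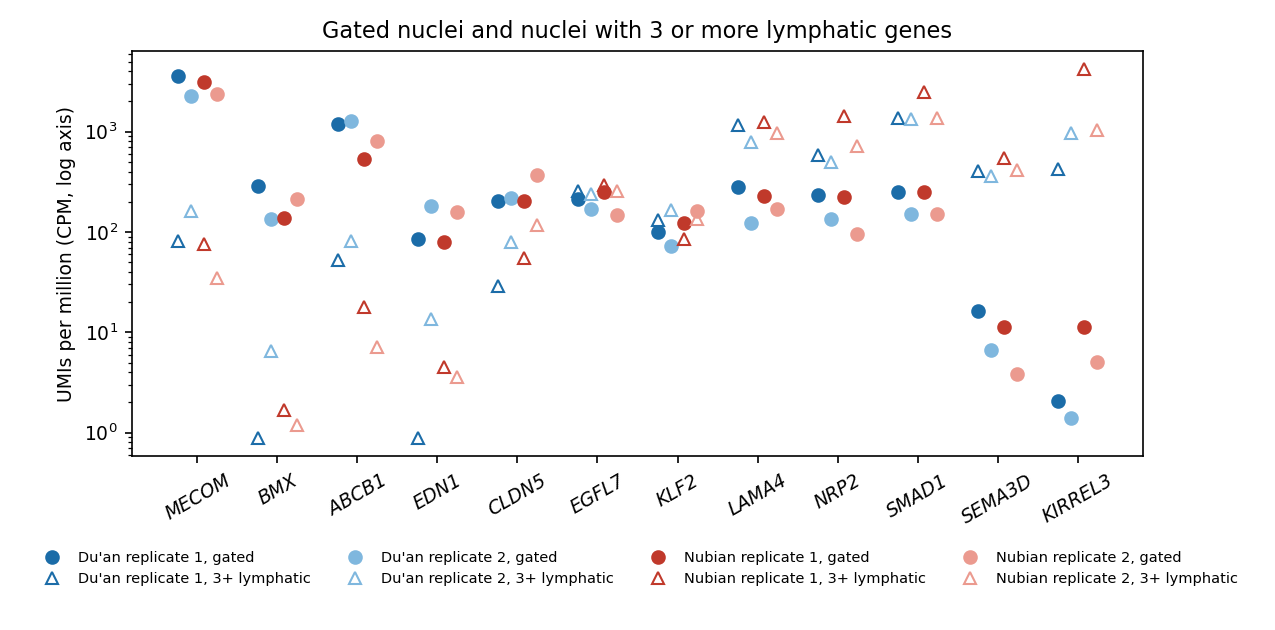
Level of 12 genes (CPM, log axis) in gated nuclei (filled circles) and in nuclei with 3 or more lymphatic genes (open triangles), 1 point per goat. MECOM, BMX, ABCB1 and EDN1 lay higher in gated nuclei in all 4 goats, LAMA4, NRP2, SMAD1, SEMA3D and KIRREL3 lower in all 4, and EGFL7 and KLF2 did not pass the test.

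At least 1 gene of the arterial list had a UMI in 1740 gated nuclei, with MECOM itself in 1601, and at least 1 gene of the venous list in 1133. MECOM had a UMI in 83.0%, 87.7%, 76.3% and 86.2% of gated nuclei, JAG1 in 31.8% to 40.3%, EFNB2, the arterial ephrin, in 26.5% to 34.6%, and HEY1 in 3.4% to 8.6%. Of the venous list NRP2 and IL1R1 were seen in 26.2% to 35.4% and 26.9% to 33.3% of nuclei and NR2F2 in 15.5% to 22.6%, while ACKR1, the chemokine decoy receptor of venules, had 14 UMIs in 6 nuclei. Nuclei with 2 or more arterial and no venous gene numbered 115, 124, 157 and 56, those with 2 or more venous and no arterial gene 9, 8, 28 and 4, so a comparison of arterial with venous nuclei could not be fitted with at least 20 nuclei per goat. With at least 1 gene of a list and none of the other, 3 goats had 20 nuclei of both kinds, and 635 of 6908 genes were called (9.19%), of which 423 were higher (6.12%) and 212 lower (3.07%) in the arterial nuclei (edgeR adjusted p under 0.05). MECOM counted in the arterial list here, so a UMI of MECOM alone made a nucleus arterial, and every venous nucleus lacked MECOM. The calls may thus set nuclei with MECOM against nuclei without it, and the part of MECOM in them was not tested. The venous nuclei of these goats (33 and 20 in the Du'an goats and 53 in Nubian replicate 1) were fewer and deeper than the arterial nuclei (185, 220 and 230), with a median of 2780, 10563.5 and 4356 against 1628, 2315.5 and 2123.5 UMIs, and the part of depth in these calls was not tested.

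A split chosen after the values were seen set gated nuclei with 2 or more of the 12 arterial genes other than MECOM (148, 199, 242 and 79 nuclei) beside those with none of the 12 (202, 266, 225 and 82), without a test. The former were deeper, with a median of 4240.5, 5192, 4147 and 5476 UMIs against 1245.5, 2182, 1728 and 2479. Of 7530 genes with at least 20 CPM in either group, 235 (3.12%) were at least 2-fold higher and 75 (0.996%) at least 2-fold lower in each of the 4 goats. ELN, the elastin of large vessel walls, was at 269, 178, 226 and 246 CPM against 7.60, 2.98, 12.6 and 4.196 CPM. CDH13, T-cadherin, was at 798, 400, 991 and 808 against 13.7, 44.7, 93.5 and 12.6 CPM, and DKK2 at 1358, 229, 487 and 418 against 4.56, 0, 16.4 and 2.10 CPM. LTBP4 and FBLN5, which build elastic fibres, were also in that set, as were AQP1, the water channel, TFPI, EDN1, PDE3A, NOS3, KLF2, CLDN5, ITGA5 and VEGFC. Of 13 tone and clotting genes in that range 5 were higher in each goat, and of 19 junction genes 5. ABCG2 was the transport gene that was lower in each, at 209, 204, 78.5 and 121 against 658, 595, 367 and 415 CPM, whereas ABCB1 was at 948, 1206, 588 and 720 against 1195, 1321, 470 and 839 CPM. MKX, a homeobox factor of tendon and fibrous tissue, was lower at 56.8, 92.2, 40.6 and 40.2 against 1127, 239, 94.8 and 222 CPM. The granulosa genes summed to 576, 2642, 2779 and 275 against 3137, 4358, 6019 and 1462 CPM. The T or natural killer list summed to 33.6, 240, 100.5 and 130 against 109, 875, 255 and 342 CPM. The stroma list was lower in 3 goats but higher in Nubian replicate 2 (242, 467, 994 and 3376 against 1312, 918, 3201 and 806 CPM), as was the smooth muscle list (342, 381, 700 and 1905 against 918, 488, 1489 and 497 CPM). The epithelial list was higher in all 4 goats (24.4, 89.1, 19.96 and 212 against 7.60, 42.7, 1.26 and 98.6 CPM), and the macrophage list was at 33.6, 1746, 119 and 1608 against 39.5, 329, 204 and 2904 CPM, higher in Du'an replicate 2 alone. The part of these RNAs in the differences, those of ELN, FBLN5 and LTBP4 included, was not tested.

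Breeds were compared because litter size differs between them. The share of nuclei in the gate was 4.97% (exact Clopper-Pearson 95% interval 4.53% to 5.43%) and 5.81% (5.38% to 6.27%) in the Du'an and 3.70% (3.42% to 3.99%) and 1.89% (1.65% to 2.17%) in the Nubian goats, where intervals cover counting error only. The means were 5.39% ± 0.60 and 2.80% ± 1.27 (SD, n = 2 goats each), a difference of -2.59 percentage points. The Du'an shares were both above the Nubian shares, and the two-sided exact permutation test gave p = 0.3333, the smallest that 2 goats against 2 allow. The difference was -2.10 points after thinning to 1000 UMIs and -1.60 points with no lymphatic gene allowed. Without the nuclei that held markers of other types the shares were 2.52%, 0.661%, 0.206% and 0.722%, and the breeds overlapped (-1.13 points, exact permutation p = 0.667).

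**Figure D5:**
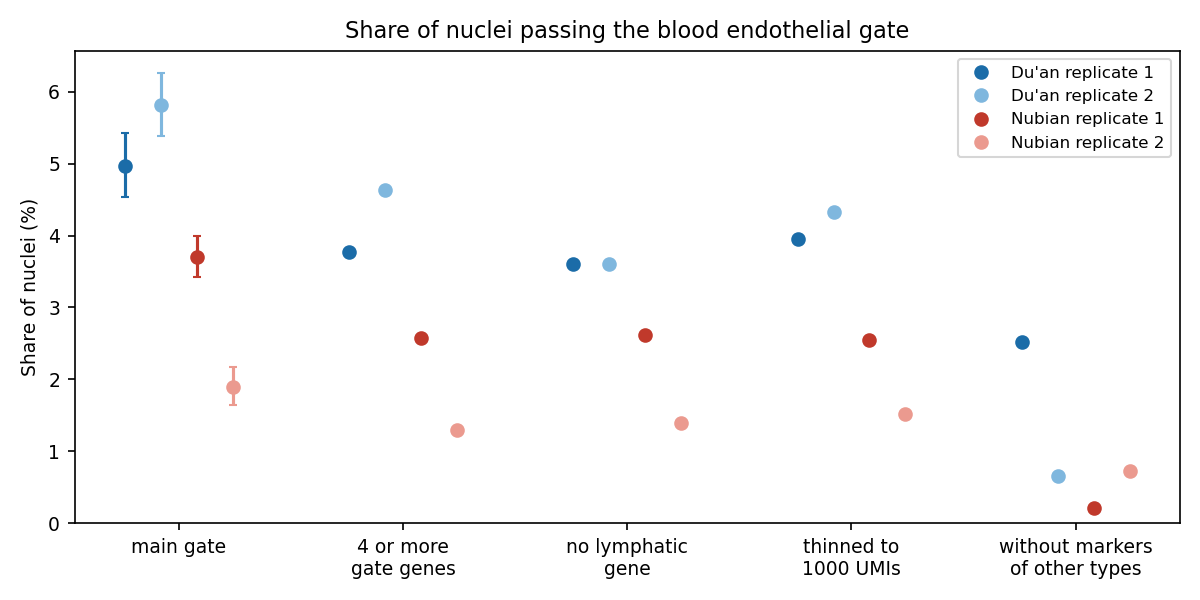
Share of nuclei that passed the gate (percent of nuclei with 500 or more UMIs, or of nuclei with 1000 or more after thinning), 1 point per goat, under 5 settings; bars on the main gate are exact 95% binomial intervals. The Du'an goats lay above the Nubian goats in the first 4 settings and overlapped them when nuclei with markers of other types were left out, where Nubian replicate 1 was lowest at 0.206%.

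No gene differed between the breeds in the gated nuclei at an adjusted p under 0.05 (edgeR quasi-likelihood, 4 sums, 0 of 12040 genes, 0%), and 222 were under an unadjusted p of 0.05. With 2 goats against 2, this count does not show that genes did not differ. DESeq2 called 4 genes, named after their values were seen: COL3A1, PRRX1, COL1A1 and ISLR, all higher in the Nubian goats. The correlation between libraries was 0.785 for the 2 Nubian and 0.901 for the 2 Du'an goats. Across the breeds it ran from 0.771 (Du'an replicate 1 with Nubian replicate 2) to 0.938 (Du'an replicate 1 with Nubian replicate 1). The goats of the breeds did not overlap for 3116 genes (25.9%). Of the 13 arterial genes 2 did not overlap, of 22 junction genes 4, of 24 regulators 10, of 17 transport genes 7 and of 13 cell cycle genes 8. CLDN5 was at 203 and 219 CPM in the Du'an and 202 and 366 CPM in the Nubian goats, and MECOM at 3570 and 2248 against 3128 and 2386 CPM, so both overlapped. Singled out after their values were seen, ABCB1 was at 1196 and 1285 CPM in the Du'an against 529 and 815 CPM in the Nubian goats (log2 difference of -0.90 ± 0.39), ABCG2 at 526 and 414 against 210 and 299 CPM (-0.90 ± 0.35), SELP at 36.5 and 50.6 against 13.2 and 19.2 CPM (-1.45 ± 0.39, but 0.051 without nuclei that held markers of other types) and KL at 57.3 and 53.1 against 18.7 and 21.7 CPM (-1.47 ± 0.31), and all 4 had an adjusted p of 0.998.

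Among the gene lists, the stroma list had the largest median difference in the other direction, although no gene passed by edgeR. COL1A1, a type I collagen chain, was at 67.8 and 51.4 CPM in the Du'an and 346 and 369 CPM in the Nubian gated nuclei (2.57 ± 0.32, edgeR adjusted p = 0.998), COL3A1 at 107 and 58.4 against 669 and 492 CPM, the proteoglycan DCN at 46.4 and 22.4 against 147 and 165 CPM, and PRRX1, a mesenchymal homeobox factor, at 14.1 and 12.3 against 65.8 and 67.1 CPM. Of 7 stroma genes tested all 7 were on the Nubian side and 5 did not overlap (median 2.16, against 0.04 over all genes). Over all genes tested 25.9% did not overlap, which is the share to set beside this count and the counts below. Of the lists of other cell types some lay on the same side, with 8 of 8 macrophage genes (median 1.10, 1 without overlap), 5 of 5 epithelial genes (median 1.04, 0 without overlap) and 5 of 5 pericyte genes (median 0.75, 2 without overlap), and others did not, with 3 of 7 T or natural killer genes (median -0.41), 6 of 12 granulosa genes (median -0.19) and 4 of 7 smooth muscle genes (median 0.20) on the Nubian side. The summed macrophage and pericyte levels given above overlapped between the breeds. The summed stroma levels given above moved with the breeds, and the part of these RNAs in the differences was not tested. Whether a breed difference in the gated nuclei departed from that in the other nuclei of the same goats was tested by an interaction term, which called 0 of 16890 genes (0%) by edgeR, with 581 under an unadjusted p of 0.05, and 1 by DESeq2 (LOC102175889, an unnamed locus, picked out after its value was seen).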

How the data were processed

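Single-nucleus libraries were made with a Chromium 3' kit from 4 ovaries, 1 per goat. Per the labels, the authors used Cell Ranger 5.0.0 and Seurat; the deposited files hold raw UMI counts per gene and nucleus for 28944 genes, with no normalization. All 48332 deposited nuclei had at least 500 UMIs (40573246 to 71613892 UMIs per library).

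The marker gate was applied to these counts, and counts were summed per goat. The members and gene lists were chosen with earlier results of these data known. Sums were tested with edgeR 4.0.16 (quasi-likelihood, TMM, filterByExpr, Benjamini-Hochberg over all genes tested) in R 4.3.3, with goat as a block where 2 sums came from 1 goat. The study's own breed tests took nuclei as replicates; here the goat was the replicate. The steps were tested on simulated data with 100 genes changed 2-fold and 100 changed 4-fold. The breed comparison called no gene that had been changed, so its count of calls is uninformative about smaller or equal changes. The interaction recovered 8% of the 2-fold and 75% of the 4-fold changes, with 19 false calls. The comparison with other nuclei recovered 92% of the 2-fold and 100% of the 4-fold changes, with 27 false calls. The comparison with lymphatic nuclei recovered 60% and 100%, with 7 false calls. Some of the genes called in these comparisons can therefore be false calls. Named genes were up to 15 per direction with the largest fold among genes with an adjusted p under 0.05, at least 20 CPM in the higher group, the same direction in every goat and a symbol, besides members of the lists. DESeq2 1.42.0, upper quartile scaling, no count filter, other gates and leaving out each goat were alternatives. Comparisons with 3 or more lymphatic genes, without MMRN1 among the lymphatic genes, and by arterial genes were read beside these; the last 2 were chosen after seeing the data. Doublets were not removed. Some single genes are not reported here.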

Additional observations from a re-analysis of the deposited data

How the results depend on the processing

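The difference in share between the breeds kept its sign under 6 other settings (-2.73 to -1.13 points) and with each goat left out (-3.49 to -1.69 points). Against other nuclei, 3719 genes were called, 2401 to 2912 with a goat left out (2401 without Du'an replicate 2) and 1138 without the goat block; DESeq2 called 4366 and a gate of 4 or more genes 4507. Against lymphatic nuclei the count was 2404, with 859 without Du'an replicate 1, 1300 without Du'an replicate 2 and at most 2043 with a goat left out, 1216 with 3 or more lymphatic genes and 1139 without MMRN1. The breed comparison called 0 genes by edgeR and 4 by DESeq2; since edgeR at 2 goats a breed also called no changed gene in simulated data, its 0 calls say nothing about stability. With replicate number as a block it called 0 genes, with 796 under an unadjusted p of 0.05; the numbers are only names, although the differences between replicates 1 and 2 correlated between the breeds across 12054 genes (r = 0.499), which are not independent replicates. The interaction called 4 genes without nuclei with markers of other types and 1 by DESeq2. With a goat left out 1 breed has a single goat, so no count of interaction calls is read from those fits.

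Among genes named, COL1A2 against other nuclei turned to -0.45 under the study's limits on nuclei, -0.12 with 4 or more gate genes and -1.98 without nuclei with markers of other types. SELP between the breeds turned to 0.051 under that last setting. Against lymphatic nuclei EGFL7 turned to -0.50 and KLF2 to -0.26 with 3 or more lymphatic genes, and to -0.34 and -0.10 without MMRN1. Over the settings, a further 52 of 1105 gene values against other nuclei and 20 of 559 against lymphatic nuclei were counted as weaker. Of these, 28 came without the goat block and 11 without Du'an replicate 1. The cause of these changes was not tested. The comparison of arterial with venous nuclei was run only with at least 1 gene of a list, over 3 goats, because with 2 genes 1 goat had 20 nuclei of both kinds. MECOM was part of the arterial list in it.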
